A study of Mus musculus with 21 samples.

Results

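Among 19296 genes measured in the embryonic mouse pancreas, 158 changed sides between the sorted fractions over 3 days of development: higher on average in 1 fraction at E12.5 and in the other at E15.5. The fractions are FVF+, cells sorted for a fusion of the forkhead transcription factor Foxa2 with the fluorescent protein Venus, and FVF-, the cells sorted as lacking it. A gene was taken where the mean log2 signal of FVF+ minus that of FVF- had opposite signs on those days and was at least 0.5 log2 units in size on each. Of the 158 genes, 22 were lower in FVF+ at E12.5 and higher there at E15.5, called the FVF- to FVF+ group. The other 136 ran the opposite way, called the FVF+ to FVF- group. Since the E12.5 and E15.5 values chose these genes, they are given as a description without a test. The tests rest on the E13.5 and E14.5 arrays, which this rule of sign and size did not use. Where a gene had several rows of values, the row was picked by its mean over all arrays.

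All cells came from the pancreas of embryos on a mixed strain background (C57-Bl6/SV129/CD1), and no treatment or further allele is given beside the fusion that marks the sort. The E12.5 pancreas gave 3 FVF+ and 2 FVF- arrays, E13.5 gave 2 of either sort, and both later days gave 3 of either, which makes 21 arrays. The replicates are called biological, but the labels do not say whether litters, embryos or sorts were separate, and the p-values reflect only how far these arrays vary. The array codes rise with the day, and 3 of the 4 E13.5 arrays carry letters whose meaning is not given, so day and code order cannot be told apart. The signal is the summarised brightness of a gene's probes on a log2 scale, and the small number of arrays limits its precision.

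Foxa2 marks the endoderm, the tissue layer that lines the gut tube and gives the pancreatic epithelium with its acinar, ductal and endocrine cells. Around that epithelium lie mesenchyme, blood vessels, mesothelium, nerves and blood cells. Over these days the epithelium branches, multipotent progenitors become restricted, and acinar and endocrine differentiation sets in on a large scale. A fraction defined by a single marker therefore does not hold the same mix of cell states on each day. In such bulk samples fewer cells of a type and less RNA per cell cannot be told apart.

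The sort held on every day in Foxa2 and the mesenchyme list, though some FVF+ arrays read higher for markers of other cells. Foxa2 itself read 10.87 to 11.51 in the FVF+ arrays and 7.98 to 8.89 in the FVF- arrays. Of 30 mesenchyme genes measured, 29 were lower in FVF+ at E12.5 and 30 at E15.5, and the median over the list lay between 8.035 and 9.055 in the FVF+ arrays and between 11.07 and 12.265 in the FVF- arrays. Defining markers of other cells in FVF+ were not even across arrays. Pdgfra of mesenchyme read 9.42 in FVF+ E12.5 replicate 1 against 7.76 and 7.52 in its companions. The globin Hbb-y read 11.18 in that array against 7.79 and 7.54. The endothelial cadherin Cdh5 read 10.71 in FVF+ E13.5 replicate 2 against 8.56 in replicate 1. At E14.5 Cdh5 read 10.66 in FVF+ replicate 2 against 9.19 and 9.52. The part of such RNA in the results below was not tested. In the other direction the epithelial cadherin Cdh1 read 7.84 and 7.80 in the FVF- arrays of E12.5, 8.49 to 10.60 in those of E14.5 and 8.86 to 9.94 in those of E15.5, with the highest value in FVF- E14.5 replicate 3. A few arrays differed from their companions in the genes described here, as shown further on. FVF- E14.5 replicate 1 and FVF+ E14.5 replicate 2 were low for many genes of the FVF+ to FVF- group. FVF- E12.5 replicate 2 and FVF- E13.5 replicate 1 were low beside their only companion. A pair does not show which of its arrays is unusual. In the median over the 28 members with a Zfp symbol, FVF- E13.5 replicate 2 was the highest of all arrays. It read 9.56 against 8.605 in replicate 1.

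RefSeq promoter windows, 250 bases before to 50 after a gene's start, were found for 125 of the 158 genes. The members were scanned on both strands for 6 sets of letters, and CCAAT, a short element common near promoters of genes with roles in cell division among others, was chosen for display after the shares had been seen. It occurred in 76 of the 134 windows of the FVF+ to FVF- group (56.7%), in 8 of the 19 windows of the FVF- to FVF+ group (42.1%) and in 6982 of the 18655 windows of all measured genes (37.4%). Several genes have more than 1 window, and these overlap. Within the FVF+ to FVF- group the share was 11 of 16 windows from 9 genes among members called lower in FVF+ at E14.5 and 11 of 18 windows among members called higher. The median GC content of the windows was 57.3% and 56.0% in the groups and 57.7% over all genes. TGTTTAC or TATTTAC, letters that forkhead factors such as Foxa2 can bind, occurred in 0 of 19 and 6 of 134 windows, and in 5.22% of all windows. The shares for CAGATG (2 and 24 windows, 13.8% of all windows), GGAATG (2 and 18, 13.1%), TTTGAA (2 and 21, 14.8%) and TATAAA (0 and 12, 11.5%) are listed in the same order. A match is only an occurrence of letters.

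Windows are shown for some of the genes described below, on GRCm38.p6 and read 5′ to 3′ on the strand of the gene. CCAAT or its reverse complement is in capitals. Each window shown holds a match, unlike the groups as a whole, whose shares are given above. Clca3a1 and Gabra4 belong to the FVF- to FVF+ group, Pltp, Egfl6 and Serpinf1 to the FVF+ to FVF- genes that were lower in FVF+ by E14.5, and Bub1, Cenpq and Zfp141 to those still higher on average in FVF+ at E14.5.
Clca3a1, chr3:144760928-144761227, minus strand: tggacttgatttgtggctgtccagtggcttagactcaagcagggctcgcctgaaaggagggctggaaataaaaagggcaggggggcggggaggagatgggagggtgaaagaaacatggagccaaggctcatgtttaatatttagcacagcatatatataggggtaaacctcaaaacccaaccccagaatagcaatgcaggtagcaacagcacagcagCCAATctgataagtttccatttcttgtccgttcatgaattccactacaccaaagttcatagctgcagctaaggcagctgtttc
Gabra4, chr5:71658259-71658558, minus strand: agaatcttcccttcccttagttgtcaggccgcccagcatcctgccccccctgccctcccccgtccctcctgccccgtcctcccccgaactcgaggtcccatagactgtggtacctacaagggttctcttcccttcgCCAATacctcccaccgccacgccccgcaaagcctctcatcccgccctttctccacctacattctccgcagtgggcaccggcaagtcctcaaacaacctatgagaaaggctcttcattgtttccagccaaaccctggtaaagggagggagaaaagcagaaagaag
Pltp, chr2:164857659-164857958, minus strand: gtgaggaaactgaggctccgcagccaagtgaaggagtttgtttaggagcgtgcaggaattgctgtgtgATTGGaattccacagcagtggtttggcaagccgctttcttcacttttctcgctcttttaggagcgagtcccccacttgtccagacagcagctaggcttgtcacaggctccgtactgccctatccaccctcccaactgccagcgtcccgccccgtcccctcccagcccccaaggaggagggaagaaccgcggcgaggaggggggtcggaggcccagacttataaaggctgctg
Egfl6, chrX:166585667-166585966, minus strand: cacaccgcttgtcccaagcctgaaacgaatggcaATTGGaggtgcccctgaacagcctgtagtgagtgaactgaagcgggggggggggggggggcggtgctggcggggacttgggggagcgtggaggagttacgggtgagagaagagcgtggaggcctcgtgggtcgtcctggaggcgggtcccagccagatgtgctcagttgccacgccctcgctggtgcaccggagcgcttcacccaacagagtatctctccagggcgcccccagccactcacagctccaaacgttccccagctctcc
Serpinf1, chr11:75422574-75422873, minus strand: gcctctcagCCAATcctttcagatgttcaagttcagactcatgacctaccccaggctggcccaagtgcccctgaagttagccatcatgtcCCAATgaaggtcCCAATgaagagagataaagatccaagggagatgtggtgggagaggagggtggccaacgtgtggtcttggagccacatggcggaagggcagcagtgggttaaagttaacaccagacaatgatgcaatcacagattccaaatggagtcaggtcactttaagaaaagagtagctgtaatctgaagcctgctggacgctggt
Bub1, chr2:127831810-127832109, minus strand: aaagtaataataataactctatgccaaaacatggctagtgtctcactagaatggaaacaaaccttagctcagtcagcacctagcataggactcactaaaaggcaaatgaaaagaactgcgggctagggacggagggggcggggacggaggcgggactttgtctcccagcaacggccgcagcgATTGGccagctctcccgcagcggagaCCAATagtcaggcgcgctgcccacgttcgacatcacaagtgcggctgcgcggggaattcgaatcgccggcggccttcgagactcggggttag
Cenpq, chr17:40934525-40934824, minus strand: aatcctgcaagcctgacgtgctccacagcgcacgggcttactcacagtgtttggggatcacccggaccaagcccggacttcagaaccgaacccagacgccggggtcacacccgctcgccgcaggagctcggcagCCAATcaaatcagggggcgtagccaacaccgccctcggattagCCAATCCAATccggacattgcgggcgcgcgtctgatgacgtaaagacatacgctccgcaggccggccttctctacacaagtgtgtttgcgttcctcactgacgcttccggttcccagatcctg
Zfp141, chr7:42505704-42506003, minus strand: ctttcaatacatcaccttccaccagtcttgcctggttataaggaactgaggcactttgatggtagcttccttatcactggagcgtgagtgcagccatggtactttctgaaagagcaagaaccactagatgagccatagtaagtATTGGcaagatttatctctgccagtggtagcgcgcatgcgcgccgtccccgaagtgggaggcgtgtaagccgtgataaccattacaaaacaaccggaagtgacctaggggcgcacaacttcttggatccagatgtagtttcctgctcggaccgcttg

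The sort difference of both groups, by day, is drawn gene by gene. The median difference in the FVF- to FVF+ group was -0.52 at E13.5 and 0.505 at E14.5, so that its middle gene changed sign between these days. The median of the FVF+ to FVF- group was 0.39 at E13.5 and 0.57 at E14.5, and changed sign only between E14.5 and E15.5. Of the 22 genes, 14 were below 0 at E13.5 and above 0 at E14.5, 4 were below on both days, 2 above on both, and 2 above and then below. Of the 136 genes, 92 were above 0 on both days, 22 above and then below, 13 below on both and 8 below and then above. The remaining gene, Zfp229, had equal means of 8.3 at E13.5 and was above 0 at E14.5.

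**Figure D1:**
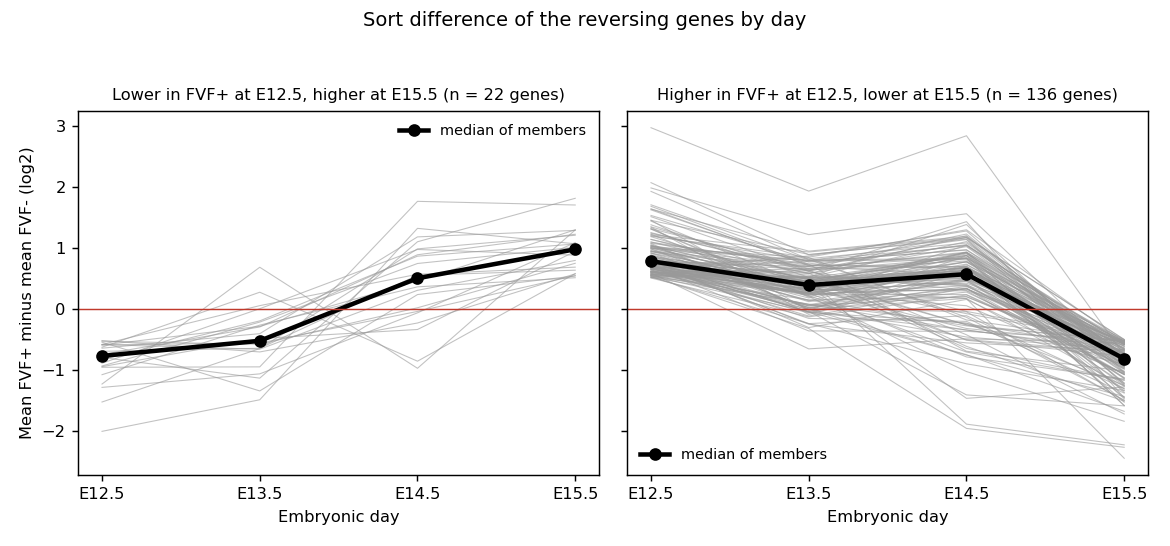
Mean log2 signal of FVF+ minus that of FVF- (vertical axis) on each embryonic day (horizontal axis), with a grey line per gene and the median in black, for the 22 FVF- to FVF+ genes (left) and the 136 FVF+ to FVF- genes (right). The left median runs from -0.52 at E13.5 to 0.505 at E14.5, whereas the right median is still 0.57 at E14.5; the E12.5 and E15.5 ends were set by the choice of genes.

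The arrays of the sorts did not overlap for 21 of the 22 genes at E12.5 (FVF- above; 34.3% of all genes) and for 20 at E15.5 (FVF+ above; 29.9% of all genes). In the FVF+ to FVF- group this held for 133 of 136 genes at E12.5 (FVF+ above; 28.9%) and for 132 at E15.5 (FVF- above; 22.9%). These counts follow from the choice of genes. At E12.5, 13.8% of all genes were at least 0.5 higher and 12.3% at least 0.5 lower in FVF+, and at E15.5 13.7% and 14.9%. In the FVF- to FVF+ group the median change from E12.5 to E15.5 was 1.18 in FVF+ and -0.595 in FVF-, and FVF+ had the larger change in 16 genes. In the FVF+ to FVF- group it was -1.37 in FVF+ and 0.47 in FVF-, and FVF+ had the larger change in 115 genes.

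The size limit sits among many close values. Galnt14 (-1.08 at E12.5 and 0.51 at E15.5) and Nbas (-0.52 and 0.58) were just inside it, and Nt5dc3 (-0.50 and 0.50) and Snora44 (-0.61 and 0.49) just outside. On the opposite side Esco2 (1.22 and -0.50) and Rock1 (1.35 and -0.50) were just inside, and Syap1 (0.50 and -0.50) and Ms4a4d (0.50 and -0.50) just outside, with differences under the limit before rounding. Leaving out each of the 11 arrays of E12.5 and E15.5 in turn gave 19 to 28 and 100 to 173 genes. The FVF+ to FVF- group held 100 genes without FVF- E12.5 replicate 2, 97 of them shared with the 136. It held 173 without FVF- E12.5 replicate 1, 112 without FVF+ E15.5 replicate 2 and 166 without FVF+ E15.5 replicate 3. In every such omission 11 of the 22 genes and 62 of the 136 were kept. At a limit of 1 log2 unit on both days 4 and 19 genes were left.

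The 22 FVF- to FVF+ genes include secreted signals, receptors and channels, and metabolic enzymes. At E13.5, 7 of the 22 (31.8%) were lower in FVF+ by limma at an adjusted p under 0.05, against 12.8% of all genes, and 0 were higher, against 12.1% of all genes. None was higher at an unadjusted p under 0.05 either, against 18.6% of all genes. The 7 were Pcx, Clca3a1, Gabra4, Dhtkd1, Slc7a2, Adgrv1 and Nbas. At E14.5, 12 of the 22 (54.5%) were higher in FVF+, against 19.9% of all genes, and 2 were lower, against 19.5%. The 12 were Slit1, Clca3a1, Clca3a2, Notum, Dner, Cth, Gabra4, Mcoln3, Vat1l, Chrm3, Atoh8 and Galnt14. Only Clca3a1 and Gabra4 were called on both days, lower and then higher in FVF+.

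Slit1, a secreted axon guidance ligand of Robo receptors, had the largest reversal of the named genes in the group, judged by the smaller of the differences at E12.5 and E15.5. Slit1 in FVF+ read 7.84, 8.01 and 7.65 at E12.5, 8.54 and 7.90 at E13.5, 9.24, 9.63 and 9.0 at E14.5, and 9.38, 9.50 and 9.25 at E15.5. Slit1 in FVF- read 9.24 and 9.48 at E12.5, 8.61 and 9.13 at E13.5, 8.36, 8.36 and 8.19 at E14.5, and 8.15, 8.18 and 8.17 at E15.5. FVF- was the higher fraction at E12.5 and E13.5, and FVF+ the higher at E14.5 and E15.5, with no overlap on any of the days. The difference was 0.99 (SE 0.21, adjusted p = 0.00394) at E14.5 and -0.65 (SE 0.26, adjusted p = 0.0994) at E13.5. Among 45 axon guidance genes measured, 9 were higher and 27 lower in FVF+ at E14.5, and Slit1 was the 1 gene of that list in either reversal group.

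Notum, a secreted esterase that inactivates Wnt ligands by removing their lipid, and Dner, a Notch-like transmembrane protein with EGF repeats, reversed in like manner. Notum in FVF+ read 7.79, 7.99 and 7.65 at E12.5, 8.01 and 7.82 at E13.5, 8.57, 8.55 and 8.71 at E14.5, and 8.62, 8.96 and 8.95 at E15.5. Notum in FVF- read 8.62 and 8.87 at E12.5, 7.97 and 8.29 at E13.5, 7.80, 7.62 and 8.17 at E14.5, and 8.03, 7.93 and 7.53 at E15.5. The Notum arrays overlapped at E13.5 and separated at E14.5, where the difference was 0.75 (SE 0.15, adjusted p = 0.00258). Dner in FVF+ read 7.36, 7.48 and 7.21 at E12.5, 7.95 and 7.62 at E13.5, 8.79, 9.02 and 8.91 at E14.5, and 8.61, 8.45 and 8.84 at E15.5. Dner in FVF- read 8.29 and 8.19 at E12.5, 7.75 and 7.81 at E13.5, 7.72, 8.12 and 7.95 at E14.5, and 7.65, 7.91 and 7.69 at E15.5. Dner was thus near equal in the fractions at E13.5 and higher in every FVF+ array from E14.5, by 0.98 (SE 0.13, adjusted p = 0.000188) on that day. Of 40 Wnt and planar cell polarity genes measured, 10 were higher and 25 lower in FVF+ at E14.5, and none was a member.

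Gabra4 encodes a subunit of a GABA-gated chloride channel. Gabra4 in FVF+ read 7.27, 7.10 and 7.29 at E12.5, 7.38 and 7.47 at E13.5, 9.77, 8.97 and 9.50 at E14.5, and 9.72, 10.08 and 9.93 at E15.5. Gabra4 in FVF- read 8.14 and 7.89 at E12.5, 8.67 and 8.45 at E13.5, 8.07, 8.35 and 8.51 at E14.5, and 8.03, 8.10 and 8.15 at E15.5. FVF- was near its later level from the start while FVF+ climbed past it between E13.5 and E14.5. The difference was -1.14 (SE 0.24, adjusted p = 0.00556) at E13.5 and 1.10 (SE 0.19, adjusted p = 0.00119) at E14.5. The change between these differences was 2.24 (SE 0.30, adjusted p = 0.0206), and FVF+ alone rose by 1.99 (SE 0.21, adjusted p = 0.00247). Chrm3, the muscarinic acetylcholine receptor through which nerves drive pancreatic secretion, read 7.43, 7.80 and 7.91 in FVF+ and 8.26 and 8.35 in FVF- at E12.5, and 9.68, 10.03 and 9.62 in FVF+ and 8.25, 8.46 and 8.72 in FVF- at E15.5. Its difference at E14.5 was 0.46 (SE 0.12, adjusted p = 0.0153), and its rise in FVF+ from E13.5 to E14.5 was 1.0 (SE 0.14, adjusted p = 0.00622).

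Clca3a1 and Clca3a2, chloride channel accessory proteins, are neighbours in the order of measured genes and the only neighbouring pair of this group. They are closely related copies whose probes may detect both transcripts, so the rows are uncertain as separate genes. Clca3a2 in FVF+ read 7.50, 8.26 and 7.47 at E12.5, 8.23 and 8.04 at E13.5, 9.71, 9.91 and 9.98 at E14.5, and 10.36, 10.02 and 10.11 at E15.5. Clca3a2 in FVF- read 8.78 and 8.62 at E12.5, 8.68 and 9.49 at E13.5, 7.82, 7.80 and 8.68 at E14.5, and 8.90, 8.35 and 8.12 at E15.5. FVF- was above FVF+ in every array at E12.5 and E13.5 and below it in every array afterwards. The Clca3a2 difference was 1.77 (SE 0.26, adjusted p = 0.000391) at E14.5, and the change from E13.5 was 2.72 (SE 0.41, adjusted p = 0.0281). Clca3a1 was -1.49 (SE 0.41, adjusted p = 0.023) at E13.5 and 1.32 (SE 0.33, adjusted p = 0.00979) at E14.5. FVF- E14.5 replicate 3, the array with the highest Cdh1, also had the highest values of both genes in its group, 9.64 for Clca3a1 and 8.68 for Clca3a2. The part of epithelial RNA in that array in these values was not tested.

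Mcoln3, a cation channel of endosomes and lysosomes, had its larger differences between days in FVF-. Mcoln3 in FVF+ read 8.75, 8.64 and 8.84 at E12.5, 8.74 and 8.75 at E13.5, 9.26, 9.29 and 9.27 at E14.5, and 8.59, 8.75 and 9.10 at E15.5. Mcoln3 in FVF- read 9.50 and 9.48 at E12.5, 8.81 and 9.27 at E13.5, 8.42, 8.39 and 8.34 at E14.5, and 7.71, 7.73 and 7.32 at E15.5. FVF+ kept within 8.59 to 9.29 on all days while FVF- was lowest at E15.5. From E12.5 to E15.5 the mean differed by 0.07 in FVF+ and -1.90 in FVF-. The sort difference at E14.5 was 0.89 (SE 0.11, adjusted p = 0.000148), and its change from E13.5 was 1.19 (SE 0.18, adjusted p = 0.0281).

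Metabolic genes and carriers did not all have a called difference at E14.5, and their times of crossing were not compared by a test. Pcx, the mitochondrial pyruvate carboxylase, feeds carbon into the citric acid cycle. Pcx in FVF+ read 8.92, 8.73 and 9.06 at E12.5, 8.83 and 8.86 at E13.5, 10.01, 10.37 and 10 at E14.5, and 10.79, 10.98 and 10.80 at E15.5. Pcx in FVF- read 10.24 and 10.14 at E12.5, 9.86 and 9.96 at E13.5, 10.46, 9.97 and 10.14 at E14.5, and 9.79, 9.91 and 9.60 at E15.5. FVF+ rose from E13.5 to E14.5 by 1.28 (SE 0.16, adjusted p = 0.00464) and met the FVF- level, so that the difference passed from -1.06 (SE 0.17, adjusted p = 0.00137) to -0.06 (SE 0.14, adjusted p = 0.781). Slc7a2, a transporter of cationic amino acids, was lower in FVF+ at E13.5, at -1.34 (SE 0.23, adjusted p = 0.00172), and its E14.5 difference was 0.24 (SE 0.19, adjusted p = 0.369). Cth, the last enzyme of cysteine synthesis from methionine, had crossed by E14.5: 10.70, 10.44 and 10.65 in FVF+ and 9.71, 9.67 and 9.81 in FVF-, a difference of 0.87 (SE 0.13, adjusted p = 0.000527). Nbas, a protein of Golgi-to-endoplasmic-reticulum transport, was lower in FVF+ at E13.5, at -0.70 (SE 0.11, adjusted p = 0.00116) and its difference at E14.5 was -0.23 (SE 0.09, adjusted p = 0.074). Vat1l and Fam163a, the remaining named genes with large reversals, were at 1.18 (SE 0.21, adjusted p = 0.00152) and 0.55 (SE 0.20, adjusted p = 0.0508) at E14.5.

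**Figure D2:**
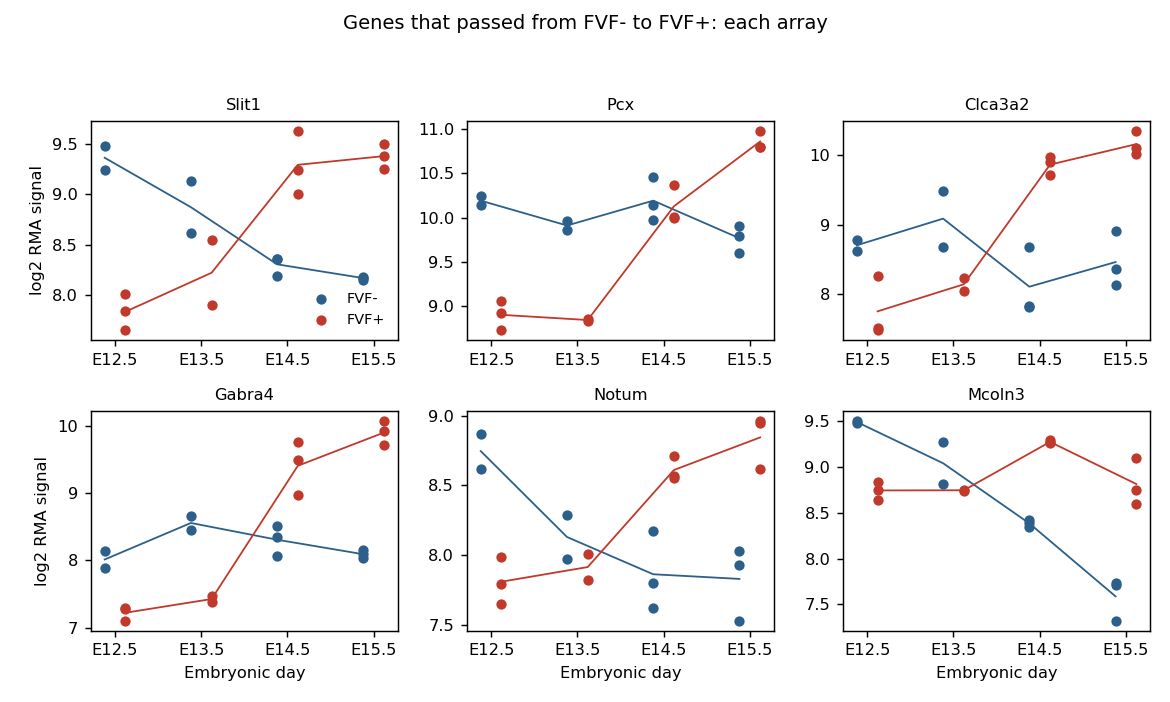
Log2 RMA signal (vertical axis) of 6 FVF- to FVF+ genes on each embryonic day (horizontal axis), with a point per array, FVF+ in red and FVF- in blue, and lines through the group means. Slit1, Clca3a2, Gabra4, Notum and Mcoln3 have every FVF+ array above every FVF- array at E14.5, and Pcx only at E15.5.

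Within FVF+, 12 of the 22 genes (54.5%) rose from E13.5 to E14.5, against 2.69% of all genes, and 0 fell, against 1.19%. At an unadjusted p under 0.05, also 0 were lower, against 8.5% of all genes. Within FVF-, 0 of the 22 were called in either direction by limma, against 0.187% of all genes higher and 0.0363% lower. At an unadjusted p under 0.05, 2 of the 22 (9.09%) were higher, against 2414 of the 19296 genes in all, and 9 (40.9%) lower, against 7.5% of all genes. The count of 12 was 6 without FVF+ E13.5 replicate 1 and 2 without FVF+ E13.5 replicate 2, fits in which the lone array is assumed to vary like the other groups. The change of the sort difference itself was called in 3 of the 22 genes, Clca3a2, Gabra4 and Mcoln3, against 0.212% of all genes. It was called in the opposite direction in 0, against 0.166%. At an unadjusted p under 0.05 it was lower in 2 (9.09%), near the 7.96% of all genes. The 3 calls became 0 without FVF- E13.5 replicate 2, either FVF+ E13.5 array, FVF- E14.5 replicate 2 or FVF+ E14.5 replicate 3, and 1 without FVF- E14.5 replicate 1 or FVF+ E14.5 replicate 1. These comparisons share their arrays with the daily ones.

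None of the 22 was in the lists of acinar, endocrine, hormone or ductal genes. The sort difference of the 26 acinar genes measured had a median of 0.51, 0.835, 2.685 and 2.88 on the 4 days in turn, and that of the 23 hormone and granule genes 1.70, 1.715, 3.69 and 3.74. Their part in the reversal of the 22 genes was not tested. Small RNAs were exceptions. The 2 genes lower in FVF+ at E14.5 were Snord118 and Snord33, small nucleolar RNAs that guide modification of other RNAs or their processing, with Snord118 at -0.97 (SE 0.31, adjusted p = 0.0297). Snord118 read 9.70, 11.65 and 10.87 in FVF- and 12.87, 11.86 and 11.38 in FVF+ at E15.5, an overlap of the arrays on the day when it counted as higher. Neither was called at E14.5 without FVF- E14.5 replicate 2, FVF+ E14.5 replicate 1 or FVF+ E14.5 replicate 3. Only 1 of the 2 was called without either FVF- E13.5 array, FVF- E14.5 replicate 1 or FVF- E14.5 replicate 3.

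The members include 2 miRNA genes, short RNAs that pair through their seed, bases 2 to 8, with target transcripts. Their mature forms are shown to identify them, on GRCm38.p6 and with the seed in capitals. The arrays label whole transcripts, and whether the signal comes from precursor or mature RNA was not tested.
mmu-miR-411-5p, chr12:109710190-109710210, plus strand: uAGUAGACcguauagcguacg
mmu-miR-411-3p, chr12:109710225-109710246, plus strand: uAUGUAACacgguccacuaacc
mmu-miR-717, chrX:52422461-52422482, minus strand: cUCAGACAgagauaccuucucu
The 3 mature forms have 3 different seeds. Mir717, of the FVF- to FVF+ group, read 9.28, 10.08 and 9.69 in FVF+ and 10.46 and 10.80 in FVF- at E12.5, and 10.16, 8.92 and 9.65 in FVF+ and 8.90, 8.55 and 8.44 in FVF- at E15.5. Mir411, of the FVF+ to FVF- group, read 7.06, 8.29 and 8.07 in FVF+ and 7.05 and 7.38 in FVF-, and 6.33, 6.79 and 6.72 in FVF+ and 7.17, 7.20 and 7.14 in FVF-. The Mir411 arrays overlapped at E12.5, and neither gene was called at E13.5 or E14.5.

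In the FVF+ to FVF- group, 6 of 136 genes (4.41%) were higher in FVF+ at E13.5 and 0 lower, below the 12.1% and 12.8% of all genes. None was lower at an unadjusted p under 0.05, against 16.3% of all genes. The 6 were Hey1, Spon1, Serpinf1, Chn1, Lin7a and Ank2, and 0 were called without FVF+ E13.5 replicate 2. At E14.5, 21 genes (15.4%) were higher and 17 lower, both shares again below the 19.9% and 19.5% of all genes, and 98 (72.1%) were not called. With each array centred on its median the split was 32 higher and 16 lower. The 17 and the 21 genes are described in turn.

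The 17 genes already lower in FVF+ at E14.5 were Egflam, Pltp, Rtn1, Fn1, Egfl6, Ahr, Trf, Zim1, Plod2, Prr5l, Spon1, Serpinf1, Hey1, Paqr4, Mmp19, Cdo1 and Tfpi2. Several encode matrix or secreted proteins: fibronectin (Fn1), the matrix proteins Egflam, Egfl6 and Spon1, the collagen-modifying lysyl hydroxylase Plod2, the matrix metalloproteinase Mmp19, the protease inhibitor Tfpi2, and the secreted Serpinf1, Pltp and Trf. Their grouping by function was made after their values were seen. All 17 had a lower FVF+ mean at E15.5 than at E12.5 (median -1.18), and 16 had a higher FVF- mean (median 1.07). Of the 17, 15 were members in every omission of an E12.5 or E15.5 array. The count of 17 ranged from 12 to 18 over the omissions of an E13.5 or E14.5 array.

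Fn1 was the member among the 30 mesenchyme genes. Fn1 in FVF+ read 12.40, 12.54 and 12.52 at E12.5, 12.03 and 12.34 at E13.5, 11.32, 11.68 and 11.29 at E14.5, and 11.45, 11.42 and 11.25 at E15.5. Fn1 in FVF- read 11.66 and 11.94 at E12.5, 12.41 and 12.04 at E13.5, 12.60, 13.12 and 12.80 at E14.5, and 12.92, 12.94 and 13.03 at E15.5. FVF+ exceeded FVF- by 0.69 at E12.5, the arrays overlapped at E13.5, and FVF- was higher in every array from E14.5, when the difference was -1.41 (SE 0.17, adjusted p = 0.000112). The mesenchyme list as a whole was at -2.77 at E12.5 and -3.32 at E15.5 in the median sort difference, so Fn1 was the exception of its list at E12.5. In FVF- the list's array medians were 11.07 and 11.35 at E12.5 and 12.05 to 12.085 at E15.5, and in FVF+ 8.035 to 8.875 and 8.56 to 8.775. The part of mesenchymal content in the FVF- values of Fn1 and the other 16 genes was not tested.

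Egflam, a matrix protein with EGF and laminin-like domains, had the lowest difference of the group at E14.5. Egflam in FVF+ read 10, 10.16 and 10.24 at E12.5, 9.60 and 9.83 at E13.5, 8.79, 9.01 and 8.84 at E14.5, and 8.80, 8.58 and 8.61 at E15.5. Egflam in FVF- read 9.63 and 9.57 at E12.5, 10.22 and 9.85 at E13.5, 10.90, 10.96 and 10.66 at E14.5, and 11.06, 10.81 and 10.93 at E15.5. FVF+ was above FVF- in every array at E12.5, by a margin of 0.53 between the means, and far below it in every array at E14.5 and E15.5. The E14.5 difference was -1.96 (SE 0.13, adjusted p = 2.03e-06), and the change from E13.5 was -1.64 (SE 0.21, adjusted p = 0.0177).

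Pltp, a secreted protein that moves phospholipids between lipoproteins, had the largest change of the sort difference from E13.5 to E14.5 in this group. Pltp in FVF+ read 10.55, 10.75 and 10.57 at E12.5, 10.19 and 10.41 at E13.5, 9.02, 8.83 and 8.69 at E14.5, and 8.34, 8.76 and 8.40 at E15.5. Pltp in FVF- read 10.01 and 9.94 at E12.5, 10.09 and 9.51 at E13.5, 10.89, 10.81 and 10.51 at E14.5, and 10.71, 10.77 and 10.71 at E15.5. The FVF+ arrays were all above the FVF- arrays at E12.5 and E13.5, and all below them at E14.5 and E15.5. The difference was -1.89 (SE 0.17, adjusted p = 1.28e-05) at E14.5, and it changed by -2.39 (SE 0.26, adjusted p = 0.00826). FVF+ alone fell, with -1.45 (SE 0.19, adjusted p = 0.00502). Rtn1, a reticulon of the endoplasmic reticulum, followed the same course: 9.98, 9.75 and 10.14 in FVF+ and 8.69 and 8.34 in FVF- at E12.5, and 8.43, 8.42 and 8.47 in FVF+ and 10.03, 10.09 and 9.60 in FVF- at E14.5. Its difference at E14.5 was -1.47 (SE 0.16, adjusted p = 5.69e-05) and the change was -1.84 (SE 0.25, adjusted p = 0.0211).

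Serpinf1, a secreted serpin that restrains vessel growth, and Spon1, a matrix protein of the spondin family, were called on both days in opposite directions. Serpinf1 in FVF+ read 11.36, 11.42 and 11.61 at E12.5, 11.31 and 11.50 at E13.5, 10.55, 10.73 and 10.56 at E14.5, and 10.01, 10.24 and 9.84 at E15.5. Serpinf1 in FVF- read 10.79 and 10.61 at E12.5, 11.07 and 10.72 at E13.5, 11.33, 11.32 and 11.13 at E14.5, and 11.23, 11.25 and 11.10 at E15.5. Serpinf1 was higher in FVF+ at E13.5 by 0.51 (SE 0.14, adjusted p = 0.0265) and lower at E14.5, at -0.65 (SE 0.12, adjusted p = 0.00152). Its change between these days was -1.16 (SE 0.19, adjusted p = 0.0384). Spon1 passed from 0.73 (SE 0.20, adjusted p = 0.0252) to -0.69 (SE 0.17, adjusted p = 0.00788). Among the 46 basement membrane, integrin and matrix enzyme genes, of which Spon1 was the 1 member, 5 were higher and 36 lower in FVF+ at E14.5.

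Egfl6, a secreted EGF-repeat protein of basement membranes, had the largest reversal of the 17. Egfl6 in FVF+ read 9.78, 9.21 and 9.36 at E12.5, 9.63 and 9.56 at E13.5, 9.23, 8.64 and 9.15 at E14.5, and 7.60, 8.62 and 8.06 at E15.5. Egfl6 in FVF- read 8.21 and 8.06 at E12.5, 9.42 and 9.36 at E13.5, 10.22, 9.96 and 9.92 at E14.5, and 9.97, 9.91 and 9.93 at E15.5. The fractions were close at E13.5, and at E14.5 the difference was -1.03 (SE 0.15, adjusted p = 0.000428). Trf, the iron carrier transferrin, was at -0.79 (SE 0.17, adjusted p = 0.00418) on that day.

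The 17 included regulators of transcription. Hey1, a repressor switched on by Notch signalling, was the third gene called on both days. Hey1 in FVF+ read 9.87, 10.19 and 10.46 at E12.5, 10.16 and 10.51 at E13.5, 9.0, 9.04 and 9.17 at E14.5, and 8.21, 8.42 and 8.16 at E15.5. Hey1 in FVF- read 9.08 and 9.18 at E12.5, 9.96 and 9.53 at E13.5, 9.77, 9.50 and 9.78 at E14.5, and 9.52, 9.67 and 10.14 at E15.5. It was higher in FVF+ at E13.5, 0.59 (SE 0.17, adjusted p = 0.0332), and lower at E14.5, -0.61 (SE 0.14, adjusted p = 0.0065), and FVF+ alone fell, with -1.26 (SE 0.16, adjusted p = 0.00475). Hey1 was the 1 member among 25 Notch genes, of which 6 were higher and 11 lower in FVF+ at E14.5. Ahr, a transcription factor activated by small ligands, was at -0.90 (SE 0.21, adjusted p = 0.00619) at E14.5, with 10.12, 10.04 and 9.96 in FVF+ and 11.40, 11.34 and 11.39 in FVF- at E15.5. Zim1, an imprinted zinc finger gene, was at -0.76 (SE 0.24, adjusted p = 0.0282), and from E12.5 to E15.5 its mean differed by -2.02 in FVF+ and by -0.04 in FVF-. Of 18 imprinted genes measured, 0 were higher and 11 lower in FVF+ at E14.5.

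**Figure D3:**
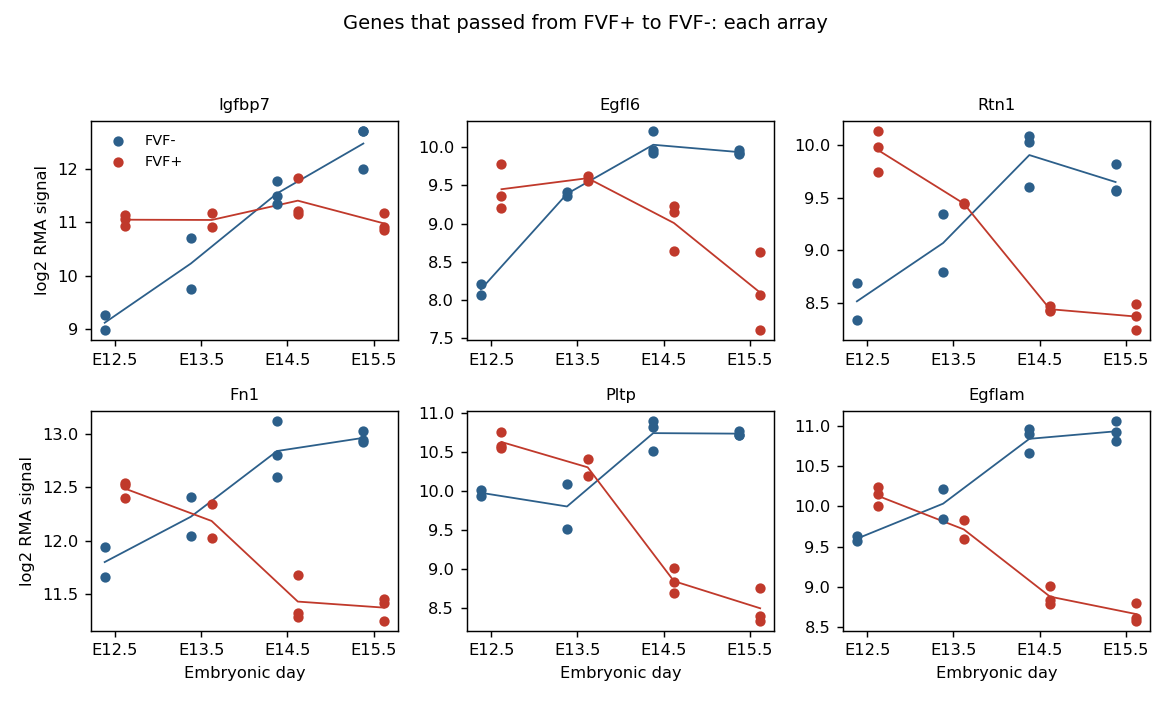
Log2 RMA signal (vertical axis) of 6 FVF+ to FVF- genes on each embryonic day (horizontal axis), with a point per array, FVF+ in red and FVF- in blue, and lines through the group means. Egfl6, Rtn1, Fn1, Pltp and Egflam have every FVF+ array below every FVF- array at E14.5, while Igfbp7 still overlaps there and is separated at E15.5.

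Igfbp7, a secreted binder of insulin-like growth factors, had the largest difference of the FVF- mean between E12.5 and E15.5 of all 158 genes, at 3.36. Igfbp7 in FVF+ read 10.94, 11.07 and 11.14 at E12.5, 10.92 and 11.17 at E13.5, 11.22, 11.84 and 11.16 at E14.5, and 11.18, 10.91 and 10.85 at E15.5. Igfbp7 in FVF- read 9.26 and 8.98 at E12.5, 10.70 and 9.76 at E13.5, 11.50, 11.78 and 11.35 at E14.5, and 12.71, 12 and 12.72 at E15.5. FVF+ lay within 10.85 to 11.84 on all days, with a difference of -0.07 between E15.5 and E12.5, while every FVF- array was higher at E15.5 than any at E12.5. At E14.5 the arrays overlapped, with a difference of -0.14 (SE 0.25, adjusted p = 0.731). The value of 11.84 came from FVF+ E14.5 replicate 2, the array with the highest Cdh5 of its group. In FVF- the array medians of the endothelium list were 9.7 and 9.97 at E12.5 and 10.42 to 11.3 at E15.5. The part of endothelial content in the Igfbp7 values was not tested. Ank2, a membrane-skeleton adaptor, Lin7a, a scaffold of cell polarity complexes, and Chn1, a GTPase-activating protein for Rac, were higher in FVF+ at E13.5, by 0.62 (SE 0.16, adjusted p = 0.0153), 0.84 (SE 0.18, adjusted p = 0.00623) and 0.60 (SE 0.17, adjusted p = 0.0274). None of the 3 was called at E14.5. Igfbp7 was the member in a list of 36 FGF and receptor tyrosine kinase genes, of which 8 were higher and 24 lower in FVF+ at E14.5. Hspb1, a small heat shock protein, was the member among 21 immediate early and heat shock genes (2 higher and 10 lower at E14.5), at -0.26 (SE 0.16, adjusted p = 0.257).

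The 21 genes still higher in FVF+ at E14.5 were Hmgn5, Cenpq, Hmmr, Zcrb1, Ube2v2, Smim10l1, Ankrd49, Esco2, Bub1, Lpar6, Ccdc34, Eif2s2, Neto2, Lztfl1, Cacybp, Pnrc2, Bcap29, Gpbp1, Zfp931, Gm14403 and Ppil4. Their FVF+ mean was lower at E15.5 than at E12.5 in all 21 (median -1.49), and their FVF- mean higher in 16 (median 0.21). Of the 21, 8 were members in every omission of an E12.5 or E15.5 array. The count depended on single arrays: it was 65 without FVF+ E14.5 replicate 2, 35 without FVF- E14.5 replicate 3, 10 without FVF- E14.5 replicate 1 or replicate 2, and 6 without FVF+ E14.5 replicate 1 or replicate 3.

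Genes of cell division were among them. Bub1 encodes a kinase of the spindle checkpoint. Bub1 in FVF+ read 11.28, 11.40 and 11.60 at E12.5, 11.47 and 11.84 at E13.5, 11.40, 10.22 and 11.41 at E14.5, and 9.68, 9.89 and 9.94 at E15.5. Bub1 in FVF- read 10.84 and 10.56 at E12.5, 10.57 and 11.09 at E13.5, 9.45, 10.04 and 10.29 at E14.5, and 10.31, 10.51 and 10.65 at E15.5. FVF+ E14.5 replicate 2 was more than a log2 unit below its companions and overlapped FVF-, and at E15.5 every FVF+ array was below every FVF- array. The difference at E14.5 was 1.08 (SE 0.33, adjusted p = 0.026). Cenpq, a protein of the centromere, read 9.73, 8.85 and 9.90 in FVF+ and 7.73, 8.13 and 8.46 in FVF- at E14.5, a difference of 1.39 (SE 0.27, adjusted p = 0.00251), and 7.55, 7.78 and 8.09 in FVF+ and 8.46, 8.90 and 9.15 in FVF- at E15.5. Esco2, the cohesin acetyltransferase, and Hmmr, a protein of the mitotic spindle, were at 1.17 (SE 0.33, adjusted p = 0.0188) and 1.30 (SE 0.36, adjusted p = 0.0165) at E14.5.

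The cell cycle list held 3 members, Bub1, Cenpe and Ccne2, of 36 genes measured. At E13.5, 8 of the 36 were higher and 2 lower in FVF+, and at E14.5 11 were higher and 4 lower. The median sort difference of the list was 0.10, 0.285, 0.28 and -0.025 on the 4 days in turn. Cenpe, a kinesin that moves chromosomes, read 10.51, 10.67 and 10.64 in FVF+ and 9.55 and 9.66 in FVF- at E12.5, and 9.35, 8.68 and 9.33 in FVF+ and 9.78, 9.67 and 9.97 in FVF- at E15.5. Ccne2, a cyclin of the entry into DNA replication, read 10.15, 10.19 and 10.58 in FVF+ and 9.66 and 9.59 in FVF-, and 9.12, 9.44 and 9.65 in FVF+ and 10.32, 10.51 and 10.55 in FVF-. Neither was called at E14.5, with 0.81 (SE 0.48, adjusted p = 0.222) and 0.05 (SE 0.24, adjusted p = 0.892). Other members with roles in chromosome structure or segregation, such as the condensin subunits Smc2 and Smc4, the kinetochore proteins Knl1 and Cenpk, the kinesin Kif18a and the shugoshin Sgo2a, were not called at E14.5 either. Cenpk was at 1.32 on E12.5 and -1.37 on E15.5, among the largest reversals of the group. Slf1, which recruits a complex of chromosome repair, was at 1.24 and -1.53, and the centriole protein Lrrcc1 at 1.19 and -1.14.

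Hmgn5, a nucleosome-binding protein, had the largest difference of any member at E12.5, 2.98, and at E14.5, 2.84 (SE 0.70, adjusted p = 0.00862). Hmgn5 in FVF+ read 9.65, 10.11 and 9.70 at E12.5, 9.81 and 10.16 at E13.5, 9.76, 8.73 and 10.06 at E14.5, and 7.22, 7.46 and 8.07 at E15.5. Hmgn5 in FVF- read 7.58 and 6.11 at E12.5, 6.55 and 9.55 at E13.5, 6.40, 6.02 and 7.60 at E14.5, and 8.29, 8.26 and 8.47 at E15.5. FVF- varied by 3 log2 units between the E13.5 replicates, 6.55 and 9.55, the widest gap among the genes described. At E15.5 the FVF- arrays were all above the FVF+ arrays. Zcrb1, a protein of the minor spliceosome, was at 1.28 (SE 0.29, adjusted p = 0.00621) at E14.5, and Ube2v2, a ubiquitin-conjugating enzyme variant, at 1.23 (SE 0.35, adjusted p = 0.0176).

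Zinc finger genes made up a large share of the FVF+ to FVF- group. Of its 136 genes, 28 (20.6%) had a Zfp symbol, against 342 (1.77%) of all genes, and those 28 were 8.19% of all Zfp genes. None of the 22 FVF- to FVF+ genes had one. This family was singled out after the members had been seen. Many Zfp genes encode repressors with a KRAB domain, which lie in clusters of related copies. Of 8 pairs of members that were neighbours among measured genes, 6 were pairs of Zfp genes, among them the run Zfp760, Zfp229, Zfp820, Zfp942 and Zfp943, and the pairs Zfp985 with Zfp979 and Zfp141 with Zfp975. Probes of such related copies may detect more than 1 transcript, so their rows are not independent and are uncertain as separate genes.

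Zfp141 and Zfp931 had the largest reversals of the Zfp members. Zfp141 in FVF+ read 10.89, 10.77 and 10.80 at E12.5, 10.64 and 10.93 at E13.5, 10.53, 9.36 and 10.85 at E14.5, and 8.02, 7.90 and 8.47 at E15.5. Zfp141 in FVF- read 9.96 and 8.65 at E12.5, 9.02 and 11.30 at E13.5, 8.78, 8.60 and 9.06 at E14.5, and 9.31, 9.93 and 9.52 at E15.5. FVF+ was above FVF- in every array at E12.5 and E14.5 and below in every array at E15.5, while the FVF- replicates of E13.5 lay on either side of the FVF+ arrays. Its E14.5 difference of 1.43 (SE 0.53, adjusted p = 0.0568) did not pass. Zfp985 had the lowest E15.5 difference of all members, -2.45, with 6.20, 6.50 and 6.57 in FVF+ and 8.47, 9.34 and 8.81 in FVF-. At E14.5, 27 of the 28 were above 0 in FVF+, against 9664 of all 19296 genes. Only Zfp931 was called higher, at 0.87 (SE 0.22, limma adjusted p = 0.00896), and 0 were called lower. Over all genes these shares were 19.9% and 19.5%. None was called at E13.5, against 12.1% of all genes higher and 12.8% lower. Of the 28, 12 were members in every omission of an E12.5 or E15.5 array.

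The median over the 28 genes showed how far arrays of 1 group differed. In FVF+ it was 9.295, 9.22 and 9.345 at E12.5, 9.195 and 9.36 at E13.5, 8.75, 7.97 and 9.08 at E14.5, and 7.835, 7.685 and 8.065 at E15.5. In FVF- it was 8.685 and 8.01, 8.605 and 9.56, 7.285, 8.065 and 8.53, and 8.57, 8.955 and 8.69. FVF+ was thus even at E12.5, spread at E14.5 and low at E15.5, whereas FVF- had no steady course over the days. The median over all 342 Zfp genes also varied by array, from 8.66 in FVF+ E15.5 replicate 2 to 9.465 in FVF- E13.5 replicate 2, while the median over all genes lay between 8.71 and 8.87. The same arrays were low for the 21 genes called higher at E14.5, whose median was 10.19, 9.46 and 10.33 in FVF+ and 8.77, 9.12 and 9.50 in FVF- at E14.5. The part of these array differences in the reversal was not tested.

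**Figure D4:**
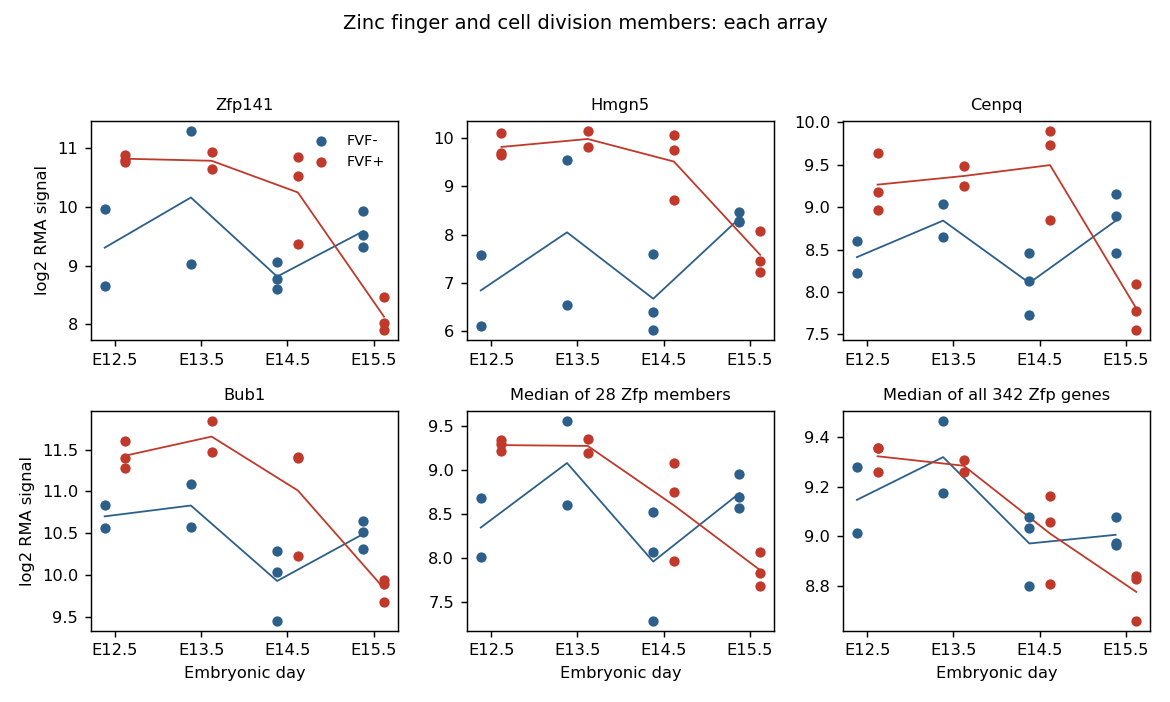
Log2 RMA signal (vertical axis) on each embryonic day (horizontal axis) for Zfp141, Hmgn5, Cenpq and Bub1, and the median over the 28 Zfp members and over all 342 Zfp genes, with a point per array, FVF+ in red and FVF- in blue, and lines through the group means. FVF+ E14.5 replicate 2, at 7.97 in the median of the Zfp members against 8.75 and 9.08, is the lowest of its group in each of the 6 panels.

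The spread between arrays of a group, pooled over the 8 groups, had a median of 0.37 log2 units over the 136 FVF+ to FVF- genes, 0.22 over the 22 FVF- to FVF+ genes and 0.14 over all genes. The median level was 9.44, 8.86 and 8.83. The spread was 0.117 to 0.273 in the 17 genes called lower at E14.5, 0.22 to 0.809 in the 21 called higher and 0.299 to 0.636 in the 28 Zfp members, and 80 of the 98 genes that were not called lay above 0. A call needs a small spread or a large difference, so the spread of called genes is partly set by the calling.

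**Figure D5:**
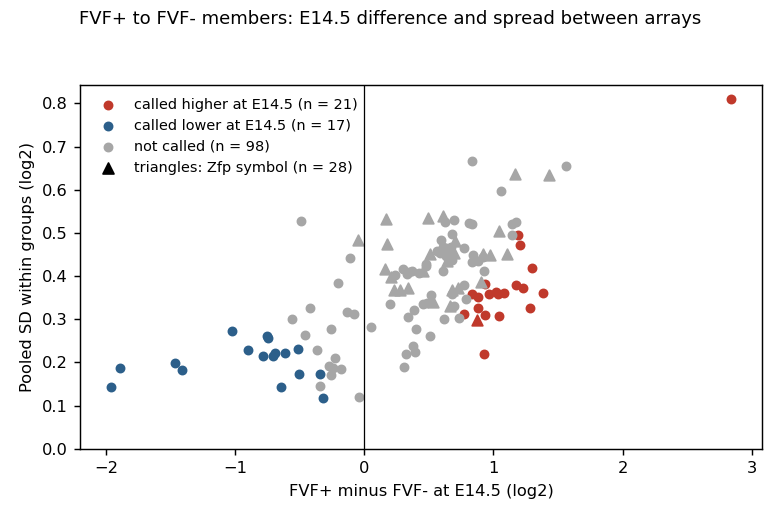
FVF+ minus FVF- at E14.5 (horizontal axis, log2) and the standard deviation within groups, pooled over the 8 groups (vertical axis, log2), for the 136 FVF+ to FVF- genes, with a point per gene, coloured by the E14.5 call and with triangles for Zfp symbols. The 17 genes called lower have spreads of at most 0.273, and Hmgn5, at 2.84, stands alone on the right.

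Between E13.5 and E14.5, 8 of the 136 genes (5.88%) fell in FVF+, against 1.19% of all genes, and 0 rose, against 2.69%. None was higher at an unadjusted p under 0.05, against 10.7% of all genes. The 8 were Pltp, Hey1, Rtn1, Lin7a, Egflam, Serpinf1, Prr5l and Tfpi2. Without FVF+ E13.5 replicate 2 the count was 0, without FVF+ E13.5 replicate 1 it was 5 and without FVF+ E14.5 replicate 1 it was 3. In FVF-, 0 of the 136 were called by limma, against 0.187% of all genes higher and 0.0363% lower. At an unadjusted p under 0.05, 13 (9.56%) were higher, a smaller share than the 2414 of 19296 in all genes. At that limit 51 (37.5%) were lower, against 7.5% of all genes. The FVF- level of E13.5 rests on 2 arrays that lay apart, at 8.605 and 9.56 in the median over the 28 Zfp members. The sort difference fell in 4 of the 136 genes, Pltp, Rtn1, Egflam and Serpinf1, against 0.166% of all genes, and rose in 0, against 0.212%. At an unadjusted p under 0.05 it was higher in 1 (0.735%), below the 4.56% of all genes. The 4 became 0 without FVF+ E13.5 replicate 2, 1 without FVF- E13.5 replicate 2, FVF- E14.5 replicate 2 or FVF+ E14.5 replicate 1, and 2 without FVF+ E13.5 replicate 1 or FVF+ E14.5 replicate 3.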

How the data were processed

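RNA from sorted cells was prepared with the RNeasy Mini kit and labelled with whole-transcript kits, per the labels' protocols. The deposited values are log2 signals summarised by the authors with RMA (affy 1.44.0), per the submitters' processing notes. Annotation build and array model were not given in the sources used here. Of 23305 probe sets, 20728 had 1 gene symbol, 1174 several and 1403 none, and the row with the highest mean was kept for each of 19296 genes, 804 of which had more than 1 probe set. RefSeq's gene table (GRCm38.p6 windows for promoters) updated 0 symbols and lacked 43 Entrez identifiers.

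The limma 3.58.1 fit in R 4.3.3 used the 10 arrays of E13.5 and E14.5 as 4 groups (6 residual degrees of freedom), with two-sided p-values adjusted over all 19296 genes by the Benjamini-Hochberg method, separately for 5 comparisons, and a threshold of 0.05. Errors beside log2 differences are moderated standard errors (SE). Scripts were tested on simulated data.

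The members, gene lists and naming rule were chosen with earlier results of these data known. Named genes were, in each group, the 12 with the largest reversals, up to 4 members of each list, up to 6 called per direction on each of the 3 main comparisons, and the genes beside the size limit, passing over predicted genes and small RNAs. Small RNAs and members listed only as called were named after their values were seen. Alternatives covered the size limit, array scaling, moderation, gene rows, dim genes, a replicate block and left-out arrays, and, chosen after seeing the data, cyclic loess and array weights.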

Additional observations from a re-analysis of the deposited data

Results flagged for a closer look

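In 7 members a change of the sort difference itself between E13.5 and E14.5 was called by limma's test of that change, over all genes. The change, as the E14.5 difference minus the E13.5 difference in log2 units, was 2.72 for Clca3a2, 2.24 for Gabra4 and 1.19 for Mcoln3 in the FVF- to FVF+ group. It was -2.39 for Pltp, -1.84 for Rtn1, -1.64 for Egflam and -1.16 for Serpinf1 in the FVF+ to FVF- group. Each of these genes was selected for a reversal between E12.5 and E15.5, and the days tested here lie between. The calls depended on single arrays. Without FVF- E14.5 replicate 2, 0 were left in the FVF- to FVF+ group and 1 in the FVF+ to FVF- group.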

How the results depend on the processing

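A size limit of 0.4, 0.75 or 1 log2 unit gave 45, 10 and 4 FVF- to FVF+ genes and 227, 46 and 19 FVF+ to FVF- genes. Leaving out 1 array gave 19 to 28 and 100 to 173. With all 21 arrays in the fit, 13 of the FVF+ to FVF- genes were higher at E13.5 and 47 at E14.5, the sort difference changed in 11 (FVF- to FVF+, upward) and 14 (FVF+ to FVF-, downward), 18 fell in FVF+, and in FVF- 1 rose and 3 fell of the 22, and 10 rose and 14 fell of the 136; this fit uses the arrays that chose the genes. Requiring at least 1 log2 unit left 4 lower and 0 higher calls at E13.5, 4 higher and 0 lower of the 22 and 12 higher and 5 lower of the 136 at E14.5, and 3 falls in FVF+. Median centring gave 32 higher of the 136 and 1 lower of the 22 at E14.5, and 5 upward changes of the sort difference. Restricting the test to genes above the overall median gave 5 such changes and 1 rise in FVF-. Array weights gave 74 higher of the 136 and 4 lower of the 22 at E14.5, 9 upward and 1 downward change of the sort difference among the 22, 13 downward changes among the 136, and 34 and 1 falls in FVF+. The cause was not tested. Whether same-numbered arrays of 1 day are pairs is not known, since the labels name no shared litter or sort. Their deviations from the group means correlated at -0.37 to 0.49, which cannot decide it in groups of 2 or 3 arrays. The main fit took the arrays as unpaired. With day and replicate as a block, 40 of the 136 were higher at E14.5, and the counts of changed sort differences (3 and 4) became 0. For the FVF+ changes from E13.5 to E14.5 the block was replicate number across days, within FVF+ alone. There the counts (12 and 8) became 0 in each group. That fit matches arrays of different days and leaves hardly any residual degrees of freedom, so these counts of 0 decide nothing.

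Over single left-out arrays, 6 to 9 of the 22 were lower at E13.5 and 0 to 9 of the 136 higher. At E14.5, 10 to 12 of the 22 were higher and 0 to 3 lower, and 6 to 65 of the 136 higher and 12 to 18 lower. The sort difference changed in 0 to 4 of the 22 and 0 to 6 of the 136, FVF+ rose in 2 to 14 and fell in 0 to 12, and in FVF- 0 to 2 of the 22 fell, and 0 to 7 of the 136 rose and 0 to 6 fell. The 50 results of named genes that were called on the 3 main comparisons were followed, and results not called were left out. For these 50, 878 of 996 alternative values kept their direction and call, and 0 reversed. The other 118 kept the direction without the call, 85 of them on leaving out an array and 22 at 1 log2 unit. The call held under every alternative except the 1 log2 limit for 27 results, among them Egflam, Pltp, Rtn1, Fn1, Slit1, Dner, Gabra4 and Hmgn5 at E14.5. With 2 or 3 arrays in a group, a gene that misses the threshold is not shown to be equal in the fractions.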

Other observations

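Genes of the centrosome and cilium were also among the FVF+ to FVF- members, picked out after the members had been seen and not tested as a set. They include Pcm1 of the centriolar satellites, Cep83 and Sclt1 of the distal appendages from which a cilium grows, Cntln and Lrrcc1 of the centriole, the intraflagellar transport protein Ift74 and Lztfl1, which regulates traffic into the cilium. FVF+ minus FVF- was 1.0 at E12.5 and -0.58 at E15.5 for Pcm1, 0.57 and -0.88 for Cep83, 0.96 and -0.52 for Sclt1, 0.79 and -0.94 for Cntln, 0.76 and -1.23 for Ift74, and 0.71 and -1.21 for Lztfl1. At E14.5 Lztfl1 was higher in FVF+ (0.93, limma adjusted p = 0.024). The differences of Pcm1 (0.84), Cep83 (0.61), Sclt1 (0.42), Cntln (0.24) and Ift74 (0.48) did not pass. FVF+ E14.5 replicate 2 was the lowest of its group for each of these genes, as in the median of the Zfp members. For Pcm1 it read 10.57 against 11.56 and 11.81. Centrosome and cilium genes that did not reverse were not counted.

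Cell surface and matrix members with smaller reversals lay between the described sets. Alcam, an adhesion molecule of the immunoglobulin family, was 0.68 at E12.5 and -0.52 at E15.5, Flrt2, a leucine-rich repeat guidance protein, 0.61 and -0.67, and Hapln1, which links hyaluronan to proteoglycans, 1.03 and -0.57. At E14.5 their differences were -0.37, -0.46 and 0.39, and none was called.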
